A study of Mus musculus with 39 samples.

Results

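The Fc gamma receptors are the cell surface receptors through which macrophages and microglia bind the constant part of immunoglobulin G (IgG), and 5 genes are described here: the receptors Fcgr1, Fcgr2b, Fcgr3 and Fcgr4, and Fcer1g, which encodes the signalling chain that the activating receptors share. They were chosen by symbol, through their Ensembl identifiers in GENCODE M21, from a count table of 55487 gene identifiers. All 5 passed the filter on low counts, as did 13420 genes in all. Fcgr1, Fcgr3 and Fcgr4 are activating receptors: when an immune complex clusters them, the paired Fcer1g chain is phosphorylated on its activation motif (ITAM) by Src-family kinases and recruits the kinase Syk, which drives phagocytosis and cytokine release. Fcgr2b is the inhibitory receptor, whose own tail carries an inhibitory motif (ITIM) that recruits the phosphatase encoded by Inpp5d, so the balance between both classes sets the response to bound IgG. In the brain these receptors are known from microglia and border macrophages, and interferon and microbial products are known to change their expression in macrophages.

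The RNA came from microglia of the striatum of adult male mice, 8 to 10 weeks old, sorted by flow cytometry as live CD11b+, CD45-low, P2RY12+ cells 18 hours after an intraperitoneal injection of saline or of lipopolysaccharide (LPS, 4500 endotoxin units per gram). The mice had been through maternal immune activation (MIA) before birth or were controls (CON), and each of these classes was split into mice without PLX and mice with it, which gives the 4 arms CON:CON, MIA:CON, CON:PLX and MIA:PLX (the prenatal class before the colon). The labels do not spell out PLX, the agent used for MIA or the strain, and they leave unsaid whether each replicate is its own animal, so a p-value measures only how far these libraries spread, which may be technical. The groups after saline held 4 libraries in CON:CON, 4 in MIA:CON, 4 in CON:PLX and 3 in MIA:PLX, and the groups after LPS held 4, 6, 6 and 6 in the same order. These are 37 of 39 libraries; 2 libraries whose titles mark them for exclusion, 1 of CON:CON after LPS and 1 of MIA:PLX after saline, entered no comparison. In bulk RNA, fewer cells of a type and less RNA per cell cannot be told apart.

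Total counts ran from 1510006 to 5746240 per library, with a median of 3095170. Of the gate's genes, P2ry12 averaged between 2343 and 2752 CPM (the count scaled to its library's total with a TMM factor) in the 4 saline groups. It fell by 3.08 on the log2 scale after LPS in CON:CON, while Itgam (CD11b) changed by -0.12 and Ptprc (CD45) by 0.18, neither of which passed the test. One library stood apart: replicate 6 of MIA:CON after LPS held P2ry12 at 1774 CPM, against 239.6 to 443 in the other 5 libraries of its group. It was also closer to the marked MIA:PLX saline library than any other pair of libraries among the 741 pairs was, with a chi-square of 1.53 per degree of freedom over 11605 genes, against 2.42 for the next closest pair. Whether its label is right could not be settled from the labels, so what the MIA:CON values after LPS stand for depends on it. The LPS fold changes, group means and spreads of the 5 genes that use this library are given with and without it.

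Of the 5 genes, 4 lie on chromosome 1 (GRCm38, GENCODE M21, all protein coding): Fcgr2b at chr1:170958617-170976547 on the minus strand, Fcgr4 at chr1:171018920-171029761 on the plus strand, Fcgr3 at chr1:171051174-171064935 on the minus strand and Fcer1g at chr1:171229572-171234365 on the minus strand. Fcgr1 lies alone at chr3:96282909-96293969 on the minus strand. Fcgr2b and Fcgr3 are near copies over part of their transcripts: 2.92% of the 50-base windows of Fcgr2b exons and 9.58% of those of Fcgr3 occur in the other gene, so reads from those stretches could have been split between them. The antisense gene Gm38204 covers 155 exonic bases of Fcgr2b, and the library kit does not keep the strand, so its reads cannot be told apart from those of Fcgr2b there. Of the 100-base windows of Fcgr2b, 3.54% occur on either strand in genes outside these 5, Gm38204 among them, beside 0.753% in Fcgr3. Of the genes between Fcgr2b and Fcer1g on chromosome 1, the 4 tested ones that are not receptors (Cfap126, Sdhc, Pcp4l1 and Tomm40l) passed the test for LPS in none of the 4 arms. Of all genes tested, 11.8% to 17.5% were called higher and 9.86% to 14% lower in an arm. The absence of calls among 4 genes therefore does not set this stretch apart.

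Fcgr4, an activating receptor that was close to undetected after saline, rose after LPS in every arm by 4.52 to 5.46 on the log2 scale, the largest change of the 5 genes in each arm. The 250 bases before its RefSeq start (GRCm38.p6, chr1:171018676-171018925, plus strand, written 5′ to 3′) are shown because this gene moved most, with capitals for an interferon response element match (GAAA, any 2 bases, then GAAA, 73 bases before the start) and a PU.1 match on the minus strand (GAGGAAGT, read here as ACTTCCTC, 24 bases before the start).
Fcgr4: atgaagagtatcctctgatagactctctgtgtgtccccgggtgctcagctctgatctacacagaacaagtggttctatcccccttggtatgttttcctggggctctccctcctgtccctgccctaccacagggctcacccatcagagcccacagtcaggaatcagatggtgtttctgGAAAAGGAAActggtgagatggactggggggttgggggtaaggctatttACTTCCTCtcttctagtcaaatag
Both strands of all promoter windows of this length were searched, and 2.98% of 32851 windows held the first motif and 2.44% the second. A match describes the letters in the window and does not show that a factor binds there.

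In CON:CON, Fcgr4 stood at 4.66, 7.22, 2.18 and 6.54 CPM after saline and at 109, 128, 98.6 and 141 CPM after LPS. In MIA:CON, the saline libraries held 5.28, 3.50, 5.79 and 8.57 CPM and the 6 LPS libraries ran from 71.5 through a median of 153 to 256 CPM. Every LPS library of these arms was far above every saline library, and the lowest LPS value was that of replicate 6 of MIA:CON, the library that stood apart. In CON:PLX, Fcgr4 stood at 7.16, 5.06, 5.12 and 4.85 CPM after saline and ran from 179 through 238 to 349 CPM after LPS. In MIA:PLX, it stood at 4.75, 6.76 and 7.47 CPM after saline and ran from 145 through 184 to 239.9 CPM after LPS. Saline and LPS libraries did not overlap in any arm, and the LPS libraries of CON:PLX were all above those of CON:CON.

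**Figure D1:**
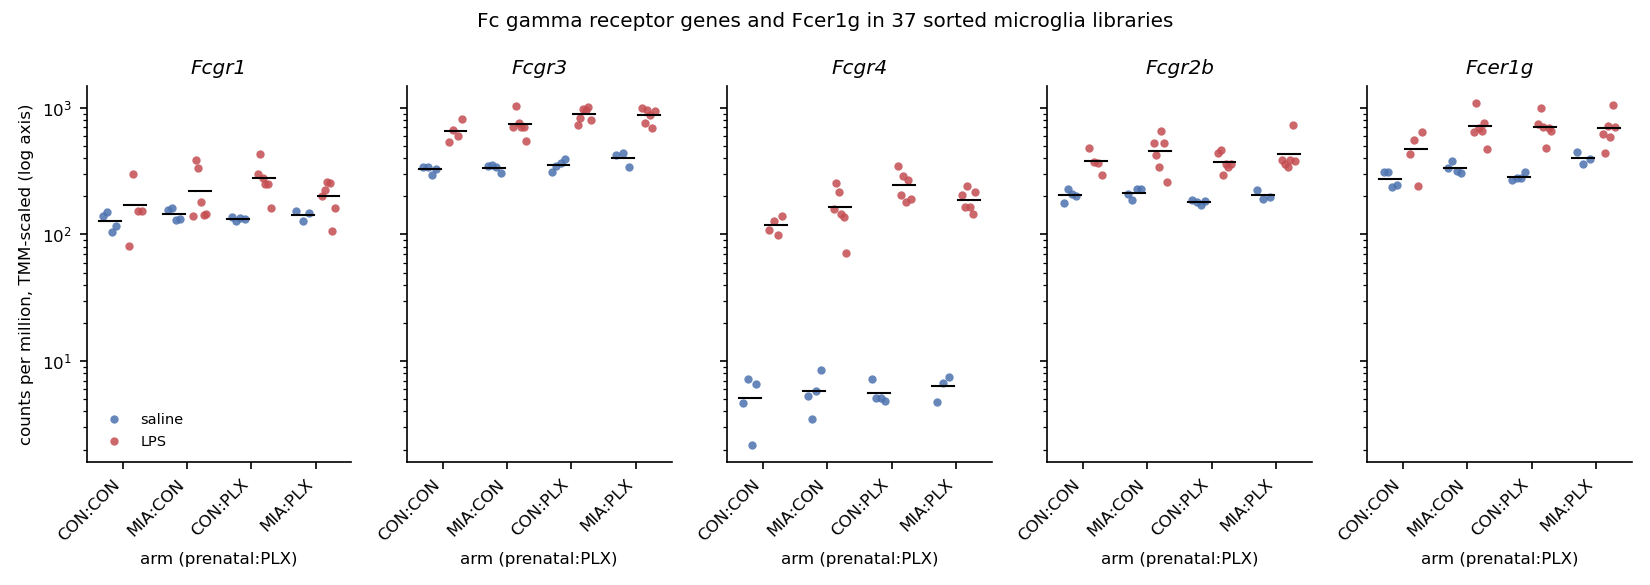
Level of each of the 5 genes in every library (CPM, log axis), with 1 point per library, bars at the group means, saline in blue and LPS in red. Fcgr4 runs from 2.18 to 8.57 CPM after saline and from 71.5 to 349 CPM after LPS, while Fcgr1 overlaps between saline and LPS in 3 of the 4 arms.

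The log2 fold change of Fcgr4 after LPS was 4.52 (SE 0.333) in CON:CON, a 22.9-fold higher level, with an adjusted p of 3.17e-12. It was 4.81 (SE 0.328, adjusted p = 5.79e-13) in MIA:CON, and 4.96 without the library that stood apart. The largest value was 5.46 (SE 0.332, adjusted p = 2.98e-14) in CON:PLX, where Fcgr4 ranked 1 by p among all 13420 genes tested, and the value in MIA:PLX was 4.90 (SE 0.373, adjusted p = 1.66e-11). Fcgr4 ranked 4 by p in CON:CON and 2 in both MIA arms. Leaving out 1 library at a time moved the value in CON:CON between 4.28 and 4.70 and in CON:PLX between 5.34 and 5.61.

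Markers of blood-derived cells also moved with LPS in these sorted cells. Of 9 listed monocyte markers 8 were tested, and 5, 6, 5 and 6 of them rose in CON:CON, MIA:CON, CON:PLX and MIA:PLX, while 0, 0, 1 and 1 fell. Of all genes tested, 13.7%, 14.5%, 17.5% and 11.8% were called higher and 9.86%, 10.9%, 14% and 10.4% lower in these arms. Their summed level ran from 9.08 to 32.1 CPM after saline, and after LPS from 30.9 to 186 in CON:CON, 31.3 to 221 in MIA:CON, 64.0 to 671 in CON:PLX and 133 to 329 in MIA:PLX. Ly6c2, a defining marker of inflammatory monocytes, was at 0.44 CPM or less after saline and at 7.73 CPM or less after LPS. Ccr2, another listed monocyte marker, went the other way. Its group means ran from 5.23 to 7.59 CPM after saline and from 1.38 to 2.88 CPM after LPS. Of 10 neutrophil markers 6 were tested, and 3, 5, 1 and 2 rose, with a summed level of 0 to 115 CPM after saline and 3.11 to 144 CPM after LPS, and Ly6g, their defining marker, at 2.03 CPM or less after LPS and at 0 in every MIA:PLX library after LPS. None of the 5 tested border macrophage markers of the 8 listed passed the test in any arm (summed level 29.6 to 91.6 CPM after saline and 5.90 to 187 CPM after LPS), and the mast cell genes Cpa3, Tpsb2, Mcpt8 and Fcer1a were at 0 in all libraries. Of 10 microglia markers 8, 7, 8 and 10 fell, from a summed 16717 to 20417 CPM after saline to 5976 to 15394 CPM after LPS, or to 12480 CPM at most without replicate 6 of MIA:CON. The part of these cells in the rise of Fcgr4 or of the other receptors was not tested.

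Fcgr3, the activating receptor with the highest level of the 4 receptors per exonic kilobase, rose after LPS in every arm by 1.01 to 1.32 on the log2 scale. The 250 bases before 1 of its RefSeq starts (GRCm38.p6, chr1:171059395-171059644, minus strand) are shown. This window lies inside the gene as GENCODE M21 places it (chr1:171051174-171064935), not before its outer start. Capitals mark an NF-kB match (GGGNNTTCC, read here as GGGTTTTCC, 160 bases before the start) and a C/EBP match on the other strand (TTGCNNAA, read here as TTAAGCAA, 37 bases before the start).
Fcgr3: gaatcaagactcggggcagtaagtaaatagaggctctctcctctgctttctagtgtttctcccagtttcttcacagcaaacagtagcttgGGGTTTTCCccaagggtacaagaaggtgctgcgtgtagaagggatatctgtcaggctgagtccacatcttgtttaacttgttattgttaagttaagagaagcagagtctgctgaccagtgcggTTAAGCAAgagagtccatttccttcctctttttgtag
Matches to these motifs occurred in 4.98% and 9.56% of all windows. The windows of Fcgr2b and Fcer1g, from the same RefSeq source, held none of these 4 motifs and no AP-1 motif (TGANTCA). This says only that these letters are not in those 250 bases. The Fcgr2b window (chr1:170976072-170976321) also lies inside its gene as GENCODE M21 places it.

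In CON:CON, Fcgr3 stood at 342, 343, 296 and 329 CPM after saline and at 542, 670.5, 604 and 821 CPM after LPS. In MIA:CON, it stood at 349, 351, 342 and 308 CPM after saline and ran from 542 through a median of 709.9 to 1036 CPM after LPS. The saline libraries lay close together and below all LPS libraries. In CON:PLX, the saline values were 309, 350.1, 369 and 394 CPM and the LPS values ran from 728 through 896 to 1018 CPM. In MIA:PLX, the saline values were 421, 436 and 343 CPM and the LPS values ran from 688 through 911 to 1002 CPM. The groups did not overlap in either arm with PLX. The log2 fold change was 1.01 (SE 0.165, adjusted p = 2.84e-05) in CON:CON and 1.14 (SE 0.155, adjusted p = 1.91e-06) in MIA:CON, the latter 1.22 without replicate 6 after LPS. It was 1.32 (SE 0.156, adjusted p = 6.25e-08) in CON:PLX and 1.12 (SE 0.172, adjusted p = 1.05e-05) in MIA:PLX. As fitted folds these changes were 2.01 to 2.50-fold, beside 22.9 to 44.0-fold for Fcgr4.

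Fcgr1, the high-affinity activating receptor, passed the test after LPS in CON:PLX alone of the 4 arms. In CON:CON, Fcgr1 stood at 141, 150.3, 104 and 117 CPM after saline and at 81.6, 299, 154 and 154 CPM after LPS. In MIA:CON, it stood at 157, 160.4, 129.9 and 134 CPM after saline and ran from 139.9 through a median of 163 to 387 CPM after LPS. The LPS libraries of both arms spread across and above the saline range, with 1 CON:CON library below it. In CON:PLX, the saline values were 138, 127, 135 and 132 CPM and the LPS values ran from 162 through 264 to 429 CPM. In MIA:PLX, the saline values were 154, 128 and 148 CPM and the LPS values ran from 107 through 212 to 257 CPM. All CON:PLX libraries after LPS were above those after saline, and 5 of 6 were in MIA:PLX, where the other one lay below them. The log2 fold change was 1.06 (SE 0.295, adjusted p = 0.00553) in CON:PLX, 0.43 (SE 0.314, adjusted p = 0.345) in CON:CON, 0.61 (SE 0.292, adjusted p = 0.121) in MIA:CON and 0.49 (SE 0.321, adjusted p = 0.296) in MIA:PLX. Without replicate 6 of MIA:CON after LPS, the value in MIA:CON was 0.71 with an adjusted p of 0.0673. Whether the change in CON:PLX differed from that in CON:CON was tested as an interaction, which gave 0.63 and did not pass the test.

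Fcgr2b, the inhibitory receptor, rose after LPS in every arm by 0.89 to 1.10 on the log2 scale. In CON:CON, it stood at 178, 228, 210.2 and 202 CPM after saline and at 478, 373, 368 and 297 CPM after LPS. In MIA:CON, it stood at 209, 187, 229 and 228 CPM after saline and ran from 261 through a median of 474 to 659 CPM after LPS. Each LPS library of these arms lay above each saline library, the nearest being replicate 6 of MIA:CON. In CON:PLX, the saline values were 189, 182, 170.0 and 183 CPM and the LPS values ran from 294 through 359.8 to 463 CPM. In MIA:PLX, the saline values were 226, 189.7 and 199 CPM and the LPS values ran from 341 through 385 to 736 CPM. One library, replicate 5 of MIA:PLX, was far above the other 5 of its group, and no arm had overlapping groups. The log2 fold change was 0.89 (SE 0.220, adjusted p = 0.00293) in CON:CON, 1.10 (SE 0.206, adjusted p = 0.000207) in MIA:CON, 1.06 (SE 0.206, adjusted p = 0.000143) in CON:PLX and 1.08 (SE 0.229, adjusted p = 0.000675) in MIA:PLX. Without replicate 6 of MIA:CON after LPS, the MIA:CON value was 1.22.

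Fcer1g, the shared ITAM chain, rose after LPS in every arm by 0.76 to 1.31 on the log2 scale, but its calls in CON:CON and MIA:PLX rested on single libraries. In CON:CON, it stood at 309.8, 313, 237 and 246 CPM after saline and at 436, 557, 242 and 642 CPM after LPS. In MIA:CON, it stood at 337, 383, 315 and 307 CPM after saline and ran from 472 through a median of 671 to 1090 CPM after LPS. The groups overlapped in CON:CON, through replicate 4 after LPS at 242 CPM, and not in MIA:CON. In CON:PLX, the saline values were 269, 281, 282 and 311 CPM and the LPS values ran from 484 through 697 to 990.4 CPM. In MIA:PLX, the saline values were 447, 358 and 397 CPM and the LPS values ran from 437 through 661 to 1054 CPM. CON:PLX showed no overlap, and 1 MIA:PLX library after LPS lay within the saline range. The log2 fold change was 0.76 (SE 0.243, adjusted p = 0.0195) in CON:CON, 1.10 (SE 0.229, adjusted p = 0.000627) in MIA:CON, 1.31 (SE 0.230, adjusted p = 3.58e-05) in CON:PLX and 0.78 (SE 0.250, adjusted p = 0.0220) in MIA:PLX. The MIA:CON value was 1.19 without replicate 6 after LPS. The call in CON:CON was lost without LPS replicate 2 (adjusted p = 0.0563) or 5 (0.0998) or saline replicate 3 (0.0638) or 4 (0.0591), and that in MIA:PLX without LPS replicate 5 (0.0664) or saline replicate 3 (0.112) or 4 (0.0748). When only the 2 groups compared were fitted, the adjusted p in CON:CON was 0.0835.

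Counted together, 4 of the 5 genes rose after LPS in CON:CON, where 13.7% of all genes tested were called higher. The count was 4 of 5 in MIA:CON, with and without replicate 6 after LPS, against a background of 14.5%. It was 5 of 5 in CON:PLX against 17.5%, and 4 of 5 in MIA:PLX against 11.8%. None fell in any arm. The median log2 fold change of the 5 genes was 0.89, 1.10, 1.31 and 1.08 in CON:CON, MIA:CON, CON:PLX and MIA:PLX, beside 0.06, 0.03, 0.03 and 0.04 over all genes tested. These 4 comparisons share no libraries.

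**Figure D2:**
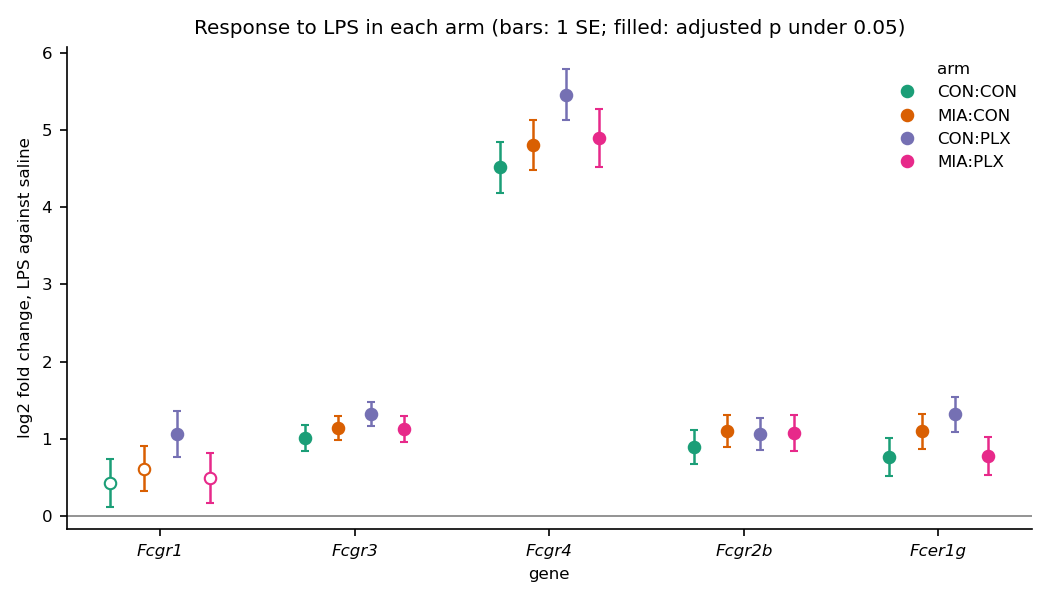
Log2 fold change of LPS against saline (y axis) for each gene in the 4 arms, with bars of 1 SE and filled points where the adjusted p was below 0.05. Fcgr4 sits between 4.52 and 5.46 in the 4 arms, and the other 4 genes sit between 0.43 and 1.32.

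Levels can be set against each other between genes only per length, as CPM per kilobase of exon. After saline, Fcer1g was the most abundant, with group means of 316 to 458 CPM per exonic kilobase, followed by Fcgr3 at 189 to 230.4, Fcgr1 at 49.5 to 56.1, Fcgr2b at 31.2 to 36.8 and Fcgr4 at 4.10 to 5.04. After LPS, Fcer1g at 537 to 820.4 and Fcgr3 at 379.8 to 511 CPM per exonic kilobase still came first. Fcgr4, at 94.7 to 197 CPM per exonic kilobase, was then above Fcgr1 (66.5 to 107) and Fcgr2b (64.9 to 78.8) in each of the 4 arms. Without replicate 6, MIA:CON after LPS stood at 876 for Fcer1g, 452 for Fcgr3, 146 for Fcgr4, 91.3 for Fcgr1 and 85.5 for Fcgr2b. On this scale the order therefore moved for 1 gene: Fcgr4 went from the lowest of the 5 to the third. The lengths count every annotated exon of a gene, 5.79 kilobases for Fcgr2b, 2.589 for Fcgr1 and 1.256 for Fcgr4. The place of Fcgr4 rests on them. In plain CPM its mean after LPS stayed the lowest of the 5 in each arm. In CON:CON it was 119 CPM, beside 172 for Fcgr1 and 379 for Fcgr2b.

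The 8 group means were also put in order for each gene, on the CPM scale. For Fcgr4 the highest saline group was MIA:PLX at 6.33 ± 1.42 (SD, n = 3) and the lowest LPS group was CON:CON at 119 ± 18.9 (SD, n = 4). With replicate 6 of MIA:CON kept, this was the only step between neighbours larger than the larger of both SDs. From there Fcgr4 went up through MIA:CON at 165 ± 64.9 (SD, n = 6) and MIA:PLX at 189 ± 36.4 (SD, n = 6) to CON:PLX at 248 ± 67.1 (SD, n = 6). With that library kept, these neighbours did not differ beyond their spread. Fcgr3 had the same single step, from MIA:PLX after saline at 400.0 ± 50.1 (SD, n = 3) to CON:CON after LPS at 659 ± 119.8 (SD, n = 4). Fcgr1 had no such step between any neighbours, with its lowest mean at 128 ± 21.1 (SD, n = 4) in CON:CON after saline and its highest at 278 ± 87.8 (SD, n = 6) in CON:PLX after LPS. Fcer1g had 3 steps, 2 of them within the saline groups, from CON:PLX at 286 ± 18.1 (SD, n = 4) to MIA:CON at 336 ± 33.8 (SD, n = 4) and from there to MIA:PLX at 401 ± 44.7 (SD, n = 3). The other was within the LPS groups, from CON:CON at 469 ± 173 (SD, n = 4) to MIA:PLX at 687 ± 206 (SD, n = 6). Fcgr2b stepped from MIA:CON after saline at 213 ± 19.9 (SD, n = 4) to CON:PLX after LPS at 376 ± 63.7 (SD, n = 6), and also between its lowest group, CON:PLX after saline at 181 ± 7.81 (SD, n = 4), and CON:CON after saline. Without replicate 6, MIA:CON after LPS stood at 183 ± 51.7 for Fcgr4, 784 ± 143 for Fcgr3, 236 ± 115 for Fcgr1, 495 ± 119 for Fcgr2b and 766 ± 187 for Fcer1g (CPM, SD, n = 5). The step of Fcgr4 from CON:CON to MIA:CON after LPS was then also larger than the larger of both SDs.

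The study's prenatal comparison is MIA against CON, and no receptor gene passed the test in any of its 4 settings. After LPS without PLX, the log2 difference of MIA minus CON was 0.61 for Fcer1g (SE 0.224, 95% confidence interval 0.17 to 1.05, unadjusted p = 0.00976, adjusted p = 0.419) and 0.47 for Fcgr4 (SE 0.251, interval -0.02 to 0.96, adjusted p = 0.572). The values of Fcgr1, Fcgr2b and Fcgr3 were 0.36, 0.27 and 0.17, with intervals that all held 0. Without replicate 6 of MIA:CON after LPS the 5 values were 0.71 for Fcer1g, 0.63 for Fcgr4, 0.46 for Fcgr1, 0.39 for Fcgr2b and 0.25 for Fcgr3, and none passed the test. Here edgeR called 0% of all genes, 1252 genes had an unadjusted p under 0.05, and DESeq2 called 3 genes higher and 4 lower, none of them among these 5. After LPS with PLX, where edgeR called 0.0149% of all genes (2 genes higher, against 14 by DESeq2), the differences were -0.47 for Fcgr1 (interval -0.97 to 0.04) and -0.39 for Fcgr4 (interval -0.83 to 0.04), and 0.20, -0.03 and -0.05 for Fcgr2b, Fcgr3 and Fcer1g. After saline, where edgeR called 0% of genes in either setting with 158 and 164 genes at an unadjusted p under 0.05, the values ran from 0.04 for Fcgr3 to 0.28 for Fcer1g without PLX and from 0.10 for Fcgr1 to 0.49 for Fcer1g with PLX. The interval of the last was -0.02 to 0.998. An edgeR fit of its own groups alone gave 0.50 with an adjusted p of 0.000793, and that fit called 124 genes higher and 12 lower.

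PLX against none was the study's other comparison, and after LPS in CON 4 of the 5 genes stood higher with PLX at an unadjusted p under 0.05, while none passed the adjusted test. The difference of Fcgr4 was 1.06 on the log2 scale (SE 0.255, interval 0.56 to 1.56, unadjusted p = 0.00019, adjusted p = 0.505), a 2.08-fold difference and the gene of rank 3 by p among all genes tested. It was 0.69 for Fcgr1 (unadjusted p = 0.0235), 0.60 for Fcer1g (unadjusted p = 0.0113) and 0.43 for Fcgr3 (unadjusted p = 0.00729), and -0.01 for Fcgr2b. In this contrast edgeR called 0.00745% of all genes, 944 genes had an unadjusted p under 0.05, and DESeq2 gave Fcgr4 an adjusted p of 0.0965. The Fcgr4 values of both groups did not overlap, with the highest of CON:CON at 141 CPM and the lowest of CON:PLX at 179 CPM. Same-numbered libraries of these groups deviated together, and with the replicate number as a block the Fcgr4 difference was 1.09 (adjusted p = 0.259), with 1 gene called higher and 1 lower in place of 0 and 1. Other measures differed between these groups as well: the summed monocyte markers had a median of 266 CPM with PLX and 118 CPM without it, the ribosomal protein genes a mean log2 CPM of 7.81 and 7.10, and mitochondrial ribosomal RNA a share of 16.8% and 12.6%. Their part in the difference was not tested. This comparison shares its CON:CON libraries with that of MIA against CON without PLX. After LPS in MIA the values of PLX against none were 0.20 for Fcgr4, 0.23 for Fcgr3, -0.14 for Fcgr1, -0.08 for Fcgr2b and -0.06 for Fcer1g, and without replicate 6 of MIA:CON they were 0.04, 0.15, -0.24, -0.20 and -0.16. That contrast had 0% of genes called, with 1189 at an unadjusted p under 0.05. After saline, PLX against none gave values between -0.18 for Fcgr2b and 0.12 for Fcgr3 and Fcgr4 in CON, and between -0.06 for Fcgr2b and 0.26 for Fcer1g in MIA, with 0% of genes called in either and 125 and 159 genes at an unadjusted p under 0.05.

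**Figure D3:**
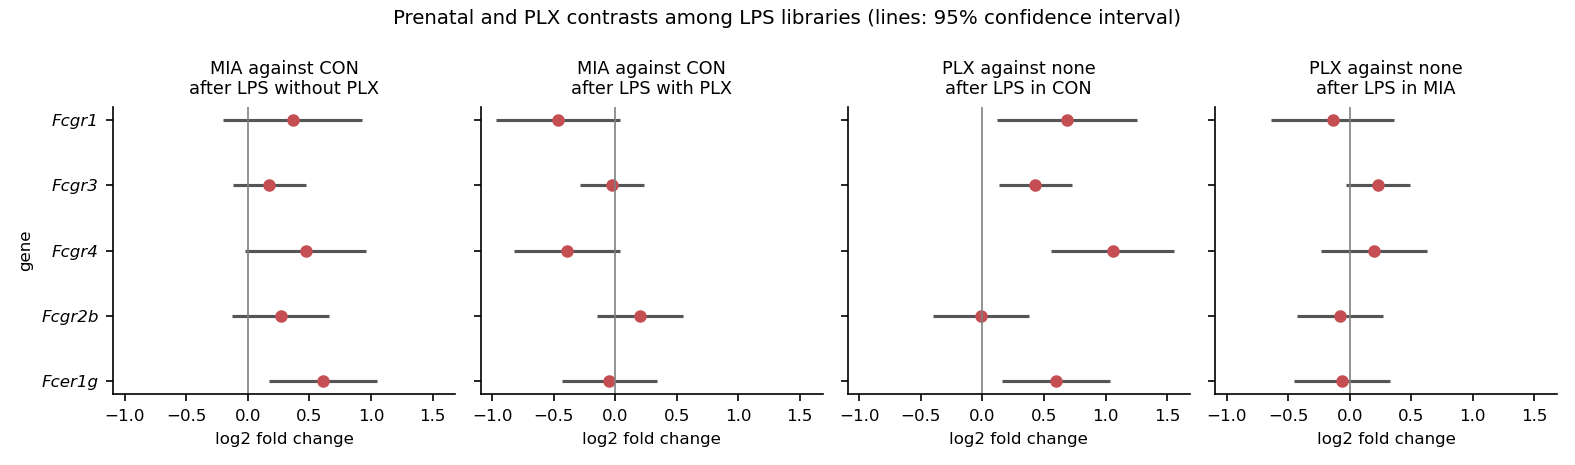
Log2 fold change with its 95% confidence interval for the 5 genes in the 4 comparisons among LPS libraries (MIA against CON without and with PLX, PLX against none in CON and in MIA). Fcgr4 for PLX against none in CON lies at 1.06 with an interval from 0.56 to 1.56, and no point passed the adjusted test.

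Whether LPS acted differently between arms was tested as 4 interactions, in each of which edgeR called 0% of all genes, with 415, 393, 356 and 391 genes at an unadjusted p under 0.05. In CON, the LPS change with PLX minus that without it was 0.94 for Fcgr4 (SE 0.427, unadjusted p = 0.0338, adjusted p = 0.9999), and 0.55, 0.63, 0.31 and 0.17 for Fcer1g, Fcgr1, Fcgr3 and Fcgr2b. In MIA the same interaction gave 0.09 for Fcgr4 and values from -0.32 to -0.02 for the other 4 genes. Without replicate 6 of MIA:CON after LPS it turned to -0.065 for Fcgr4 and ran from -0.41 to -0.093 for the others. The LPS change of Fcgr4 in MIA minus that in CON was 0.29 without PLX, or 0.44 without that library, and -0.56 with PLX. None of these differences passed the adjusted test.

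Each activating receptor was set against the inhibitory one within each library, as a log2 ratio of CPM values. First comes the ratio of Fcgr4, the receptor that moved most, to Fcgr2b. In CON:CON it was -5.26 ± 0.67 (SD, n = 4) after saline and -1.66 ± 0.46 (SD, n = 4) after LPS, a difference of 3.60. The difference was 3.61 in MIA:CON, or 3.68 (adjusted exact permutation p = 0.0833) without replicate 6, 4.27 in CON:PLX and 3.75 in MIA:PLX, and saline and LPS libraries did not overlap in any arm. The exact permutation test gave the smallest p these group sizes allow, 0.0286, 0.00476, 0.00476 and 0.0119, which after adjustment over the 56 ratio comparisons made were 0.133, 0.0533, 0.0533 and 0.0833. The other activating receptors moved beside Fcgr2b far less: the ratio of Fcgr3 to Fcgr2b changed by 0.12, 0.08, 0.28 and 0.10, and that of Fcgr1 to Fcgr2b by -0.58, -0.56, -0.04 and -0.59, with overlapping groups throughout. Without replicate 6 the MIA:CON values were 0.017 and -0.61. Among LPS libraries of CON, the ratio of Fcgr4 to Fcgr2b with PLX minus that without it was 1.03 (exact permutation p = 0.0190, adjusted 0.119), with overlap. That test does not use the shared replicate numbers, and the 4 same-numbered pairs differed by 1.80, 0.36, 0.89 and 0.75, all in 1 direction.

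The ratio of Fcgr4 to its partner chain was taken in the same way: the log2 ratio of Fcgr4 to Fcer1g was higher after LPS by 3.79, 3.59, 4.02 and 4.04 in the 4 arms, with no overlap, and by 3.70 in MIA:CON without replicate 6. Fcer1g itself was set against Tyrobp, the other main ITAM chain of microglia, which pairs with receptors such as the one encoded by Trem2. Tyrobp changed after LPS by 0.29, 0.46, 0.63 and 0.13 on the log2 scale and passed the test in no arm. The ratio of Fcer1g to Tyrobp was higher after LPS by 0.55, 0.65, 0.72 and 0.66, with an exact permutation p of 0.0286, 0.0333, 0.00952 and 0.0476 and adjusted values of 0.133, 0.144, 0.0833 and 0.190. The groups overlapped in MIA:CON only, where the value was 0.75 without replicate 6. In MIA against CON after LPS without PLX, the ratio of Fcgr3 to Fcer1g differed by -0.49 (MIA minus CON), without overlap and with an exact permutation p of 0.00476, adjusted 0.0533. It was 0.07 ± 0.12 (SD, n = 6) in MIA:CON and 0.56 ± 0.50 (SD, n = 4) in CON:CON, where replicate 4 stood at 1.32 and the other libraries between 0.27 and 0.35. Without that library the difference was -0.24, and without replicate 6 of MIA:CON it was -0.52.

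**Figure D4:**
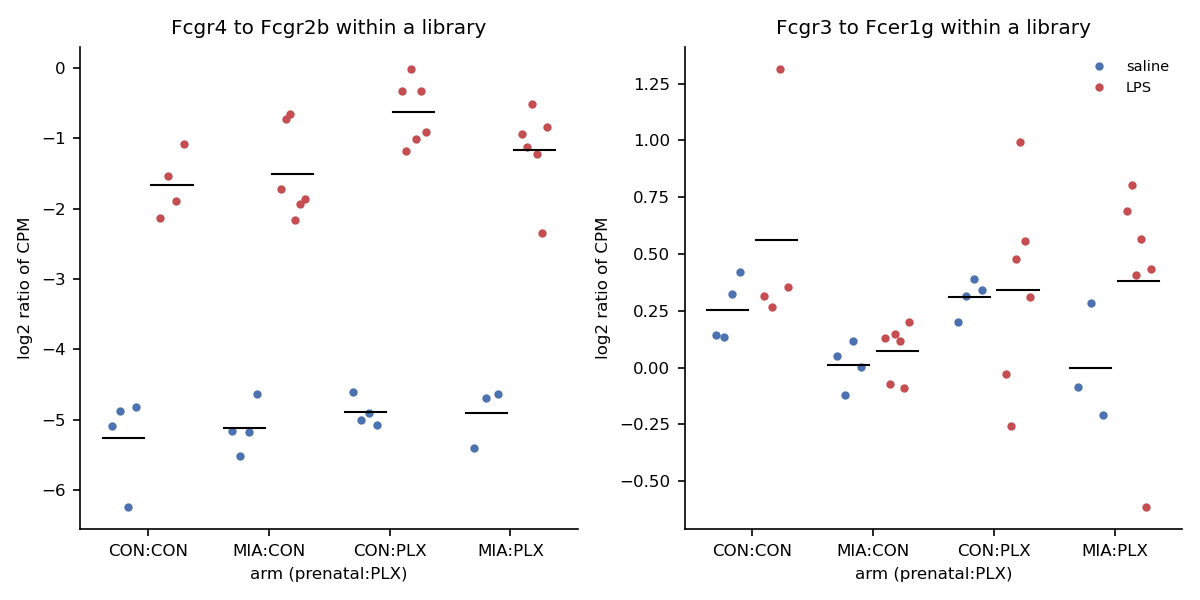
Log2 ratio of Fcgr4 to Fcgr2b and of Fcgr3 to Fcer1g in each library (1 point each), by group, with bars at the group means. The ratio of Fcgr4 to Fcgr2b lies apart between saline and LPS in all 4 arms, and 1 CON:CON library after LPS stands at 1.32 in the ratio of Fcgr3 to Fcer1g.

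Libraries of 1 group differed more after LPS than after saline. The pooled SD of log2 CPM within groups went from 0.163 to 0.583 for Fcgr1, from 0.124 to 0.376 for Fcgr2b, from 0.131 to 0.242 for Fcgr3 and from 0.157 to 0.430 for Fcer1g, beside medians of 0.131 and 0.362 over 2393 genes with a mean log2 CPM of 6 or more. Fcgr4 had 0.468 after saline, where each library held 7 to 36 reads of it, and 0.429 after LPS. Without replicate 6 of MIA:CON the values after LPS were 0.587 for Fcgr1, 0.332 for Fcgr2b, 0.221 for Fcgr3, 0.334 for Fcgr4 and 0.417 for Fcer1g. The spread of Fcer1g within the LPS groups followed that of 76 ribosomal protein genes: over 22 libraries, each taken as its deviation from its group mean, Pearson's r was 0.894 and Spearman's rho 0.895, each with the smallest permutation p that 100000 permutations can give, 1e-05, and an adjusted p of 0.00025 over 25 relations. Without the 2 libraries farthest from the median r was 0.866, and without replicate 6 of MIA:CON it was 0.900. Fcgr3 had an r of 0.510 and a rho of 0.529 with the same genes (adjusted permutation p = 0.0680 and 0.0859), and Fcgr4 had 0.422 and 0.520 (adjusted permutation p = 0.0680 and 0.0859). Fcgr1 had an r of 0.207 (adjusted permutation p = 0.552). Fcgr2b had an r of 0.136 and a rho of 0.0864 with the same genes (adjusted permutation p = 0.596 and 0.745). Fcer1g also followed the share of counts in mitochondrial ribosomal RNA (r = 0.807, adjusted p = 0.00137, rho = 0.756, adjusted p = 0.00812). Without the 2 farthest libraries that r was 0.761. With the log2 total count, Fcgr1 had an r of 0.554 and a rho of 0.532 (adjusted permutation p = 0.0548 and 0.0859). That r was 0.406 without the 2 farthest libraries and 0.604 without replicate 6 of MIA:CON. Fcgr3 and Fcgr4 had an r of 0.655 (adjusted p = 0.0482) and a rho of 0.598 (adjusted p = 0.0629), with r at 0.388 without the 2 farthest libraries, so that relation rests on those libraries, and 0.527 without replicate 6 of MIA:CON.

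**Figure D5:**
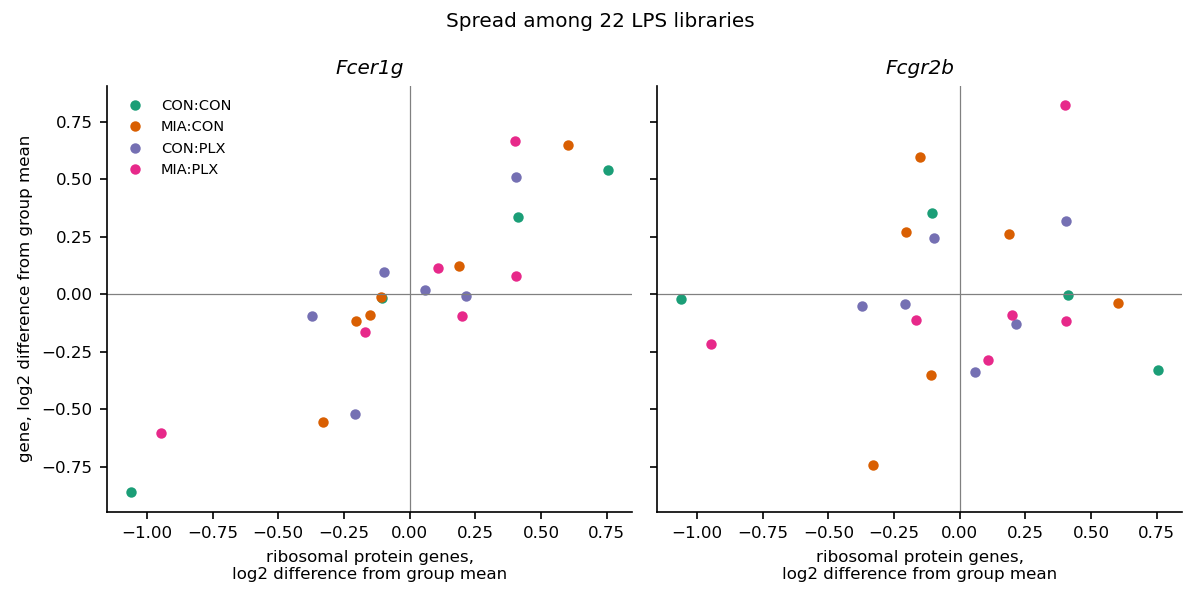
Deviation from the group mean (log2 CPM) of Fcer1g and of Fcgr2b (y axis) against that of the mean of 76 ribosomal protein genes (x axis) in the 22 LPS libraries, coloured by arm. The points of Fcer1g rise together with the ribosomal protein genes, with an r of 0.894.

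The mean log2 CPM of the ribosomal protein genes also differed between groups. It was 6.59, 6.72, 6.57 and 7.09 after saline in CON:CON, MIA:CON, CON:PLX and MIA:PLX and 7.10, 7.69, 7.81 and 7.71 after LPS. The lowest LPS library was replicate 4 of CON:CON at 6.03, the library in which Fcer1g stood at 242 CPM. Without it and the lowest library of MIA:PLX, replicate 2 at 6.77, an alternative chosen after seeing the data, the LPS change of Fcer1g in CON:CON was 0.98. The share of counts in mitochondrial ribosomal RNA was 11.1%, 12.6%, 10.7% and 12.5% after saline and 12.6%, 16.9%, 16.8% and 16.1% after LPS. The part of either measure in the levels of Fcer1g was not tested.

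The genes whose 8 group means were most like those of each receptor gene were named by the root mean square difference of the centred log2 group means, over 6342 genes. The 3 nearest to Fcer1g were the ribosomal protein genes Rps24, Rpl27a and Rpl35a, at 0.048 to 0.051. Those nearest to Fcgr3 were Ucp2, Tapbpl and Degs1, at 0.051 to 0.066, and those nearest to Fcgr2b were Taf1d, Zfp281 and Furin, at 0.076 to 0.094. Fcgr1 had Hsbp1, Cox5a and Rab5c at 0.085 to 0.109. Fcgr4 had no neighbour as near: Ms4a6c, Ifitm2 and Cxcl2 came first at 0.153 to 0.200, and Ms4a6c changed after LPS by 4.93, 4.47, 5.46 and 4.85 in the 4 arms. Among the 5 genes themselves, Fcgr3 was 0.187 from Fcer1g and 0.190 from Fcgr2b, while Fcgr4 was 1.84 to 2.13 from the other 4 genes. These values describe 8 group means and carry no test.

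The ligands of the receptors are immunoglobulins, and transcripts of the IgG chains were close to absent. Over all libraries, the 4 IgG heavy chain genes counted (Ighg1, Ighg2b, Ighg2c and Ighg3) had between 1 and 3 reads each in total, and Igkc had 4. Ighm had 12769 reads after saline and 4653 after LPS and fell by 1.99 on the log2 scale in CON:CON (SE 0.429, adjusted p = 0.000862), and Ighd fell by 2.62 (adjusted p = 0.00205). Of the other Fc receptors and immunoglobulin receptors, 4 of 14 listed were tested and 2 fell in each arm. Of all genes tested, 9.86%, 10.9%, 14% and 10.4% were called lower in CON:CON, MIA:CON, CON:PLX and MIA:PLX. The list median was -0.31 in CON:CON, beside 0.06 over all genes. The 2 that fell were Fcrls, a scavenger receptor like molecule typical of microglia, which fell by 1.15 in CON:CON, and Fcrl1, which fell by 1.76. In MIA:CON both calls lay just under the threshold, with adjusted p of 0.0486 and 0.0487. Fcgrt, the neonatal IgG receptor, and Trim21, the cytosolic one, changed by 0.53 and 0.55 and did not pass the test.

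Of the other ITAM adaptors 4 of 6 were tested, and 1 call was made, for Hcst, which rose by 2.03 in MIA:CON. There 14.5% of all genes were called higher, so 1 call among 4 genes is near that share. Of 20 other receptors listed as using ITAM adaptors or carrying an ITAM-like motif, 12 were tested. In each arm 6 rose and 2 fell, with a median of 2.85 in CON:CON beside 0.06 over all genes. The list was not sorted by whether a receptor also carries an ITIM, so a rise on it need not be that of an activating receptor. The shares of all genes called higher were 13.7%, 14.5%, 17.5% and 11.8% in the 4 arms, and those called lower were 9.86%, 10.9%, 14% and 10.4%. Cd300lf rose by 8.68 in CON:CON, and Trem1, which also passed the test, was at 0 in all its saline libraries and averaged 32.1 CPM after LPS. Siglech, a microglial receptor, fell by 1.96, and Clec7a changed by -0.22 without passing the test. Among the 11 Src-family and related kinases, 3 rose and 1 fell in CON:CON (beside 13.7% and 9.86% of all genes), 2 and 2 in MIA:CON, 3 and 3 in CON:PLX, with 2 and 0 in MIA:PLX, with a median of 0.05 in CON:CON. Fgr rose most, by 5.86, 4.80, 5.91 and 5.02 in the 4 arms, and Ptk2b rose by 0.88 in CON:CON. Lyn and Syk, the kinases nearest to the receptor, changed by 0.05 and 0.17 there and did not pass the test. Without replicate 6 of MIA:CON after LPS, 3 of these kinases rose in MIA:CON.

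Of 27 listed adaptors, lipases and exchange factors further downstream, 25 were tested, and 1 rose and 3 fell in CON:CON, with a median of -0.01. Over all genes tested there, 13.7% were called higher and 9.86% lower, so both counts were near or below those shares. Sh3bp2 rose by 0.84, and Blnk and Pik3cg fell by 1.30 and 0.51, while Sos1 changed by -0.01 without passing the test. The counts were 3 and 3 in MIA:CON, 2 and 5 in CON:PLX, with 2 and 2 in MIA:PLX. Of all genes tested, 14.5%, 17.5% and 11.8% were called higher and 10.9%, 14% and 10.4% lower in these arms. Of 20 genes of the phagocytic cytoskeleton, 18 were tested. In CON:CON 2 rose and 2 fell, near the shares of all genes there, with a median of 0.07. Beside the shares given above for the other arms, the counts were 3 and 3 in MIA:CON, 5 and 4 in CON:PLX, with 2 and 3 in MIA:PLX. Elmo1, which helps to activate the small GTPase Rac in engulfment, fell by 1.23, and Arpc1b, a subunit of the actin-nucleating complex, rose by 0.75.

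On the inhibitory side, all 10 listed phosphatases and adaptors were tested. In CON:CON 3 rose and 2 fell (beside 13.7% and 9.86% of all genes), with a median of -0.09. The counts were 2 and 1 in MIA:CON (beside 14.5% and 10.9%), 4 and 4 in CON:PLX (beside 17.5% and 14%), with 2 and 2 in MIA:PLX (beside 11.8% and 10.4%). Inpp5d, the phosphatase that Fcgr2b recruits, changed by -0.57 in CON:CON (SE 0.226, adjusted p = 0.0633) and fell by 0.56 in CON:PLX (adjusted p = 0.0338). Ptpn6 changed by 0.02, Inpp4b fell by 1.58, and Dok3 and Cblb rose by 1.40 and 1.12 in CON:CON. Of 16 other ITIM receptors 15 were tested, and 6 rose and 5 fell in CON:CON (beside the same shares), 5 and 4 in MIA:CON, 6 and 5 in CON:PLX, with 6 and 4 in MIA:PLX, with a median of -0.00 in CON:CON. Lilrb4a, Pilra and Pirb rose by 3.19, 2.63 and 2.07 there, above the 0.89 of Fcgr2b. Of 25 listed regulators of Fc receptor genes 23 were tested, and 9 rose and 4 fell in CON:CON (beside the same shares), 11 and 3 in MIA:CON (beside 14.5% and 10.9%), 10 and 5 in CON:PLX, with 9 and 4 in MIA:PLX, with a median of 0.37 in CON:CON. Stat2, C5ar1 and Il4ra, which are known to act in interferon, complement and interleukin signalling, rose by 2.63, 2.96 and 1.65 there, and Ifnar2 changed by -0.05 without passing the test. Without replicate 6 after LPS, the inhibitory phosphatases had 3 falling genes in MIA:CON in place of 1, the regulators had 12 rising and 5 falling, 4 adaptors rose and 5 ITIM receptors fell, while the cytoskeleton counts did not move.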

How the data were processed

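Bulk RNA-seq libraries of sorted striatal microglia were used, 37 of 39 in 8 groups by the labels' titles. The authors deposited 1 table of estimated counts per gene, which the submitters' processing notes tie to STAR, RSEM and DESeq2 without versions, and 14.71% of the values above 0 have decimals. Per the labels' protocols, RNA was amplified with a kit that is not strand-specific. Which genome build and annotation lay behind the counts is not given in these sources. Estimated counts were rounded here, which leaves the deposited values otherwise as they were. Identifiers were paired with GENCODE M21 symbols (55227 of 55487), and those without a symbol held 0.0104% of counts.

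Genes were filtered with filterByExpr (minimum count 10, minimum total 15) and tested with edgeR 4.0.16 in R 4.3.3 (TMM scaling, robust quasi-likelihood F-test, 1 fit to all 8 groups, two-sided, Benjamini-Hochberg adjustment over 13420 genes for each of 16 contrasts, threshold 0.05). A fold change is on the log2 scale and its SE comes from that fit. CPM values are TMM-scaled, and log2 CPM used a prior count of 2, which understates changes of low genes. Log2 ratios within libraries were compared by two-sided exact permutation over libraries, and relations across libraries by 100000 permutations within groups, both with Benjamini-Hochberg adjustment. The fit was tested on simulated data. Intervals and p-values cover the spread between libraries, and with 3 to 6 libraries a group their width is set by that number.

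Alternatives were DESeq2 1.42.0, limma 3.58.1 with voom quality weights, other scalings, no filter, the contrast's own groups, both marked libraries included, each library left out, and the replicate number as a block. One was added after seeing the data, without the 2 LPS libraries lowest in ribosomal protein genes. The numbers were taken to pair libraries only for PLX against none after LPS in CON. There each of 4 same-numbered pairs deviated together over 5000 genes (r from 0.228 to 0.816, median 0.626, against -0.177 for other pairs). Only 2 of the 4 CON:CON libraries were closest to their own number, so the pairing is not settled. MIA against CON after LPS without PLX came next, with r from -0.129 to 0.848 and a median of 0.379. Named genes were all 5 receptor genes, 9 set genes (Tyrobp, Fcrls, Fcgrt, Syk, Inpp5d, Ptpn6, P2ry12, Itgam, Ptprc), from each pathway list up to 3 tested genes with the smallest p for LPS in CON:CON and the 1 with the largest, immunoglobulin chains with a count, and the 3 genes most like each receptor gene. Members and lists were chosen with earlier results of these data known. Promoter sequences came from RefSeq (GRCm38.p6), where all 5 genes matched. No column of the table lacked a listed sample. One listed kinase and 1 promoter motif are not reported here.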

Additional observations from a re-analysis of the deposited data

Results flagged for a closer look

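In the 35 groups of 4 to 6 libraries examined, 2 values lay far from the rest of their group by Dixon's criterion, and chance gives such a value in about 1 group in 20. Fcgr2b stood at 736 CPM in replicate 5 of MIA:PLX after LPS, where the other 5 libraries held 341 to 391 CPM. Fcgr4 stood at 7.16 CPM in replicate 1 of CON:PLX after saline, where the other 3 held 4.85 to 5.12 CPM.

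The 2 libraries marked for exclusion, which entered no comparison, also carried signal of the receptor genes (CPM scaled over all 39 libraries). In the marked CON:CON library after LPS, Fcgr4 stood at 12.4 CPM, above the highest CON:CON saline library at 7.19 and below the LPS libraries of its group at 98.2 to 140.1. Fcgr3 stood there at 370.3 CPM, between the same 2 ranges, and Fcer1g at 509 CPM, within the LPS range. Fcgr2b at 210.3 CPM and Fcgr1 at 113 CPM were no higher than the highest saline library of the arm (228 and 149.7 CPM). In the marked MIA:PLX library after saline, Fcgr4 stood at 51.2 CPM, where the other 3 libraries held 4.73 to 7.44 and the LPS libraries of the arm 144 to 239. Fcgr3 stood there at 517 CPM, Fcgr2b at 276, Fcer1g at 448 and Fcgr1 at 156, each above the 3 other saline libraries.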

How the results depend on the processing

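The LPS changes of the 5 genes kept their direction under every alternative run, and Fcgr2b, Fcgr3 and Fcgr4 kept their calls in all 4 arms. Among the LPS results outside the left-out libraries, 177 of the values computed kept their side of the threshold, 2 passed it and 1 fell below it. Depth limits Fcgr4 after saline (7 to 36 reads a library), and 3 to 6 libraries a group limit the comparisons of MIA and PLX, whose small differences often changed sign. The cause of these shifts was not tested.

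With library totals only, MIA against CON at saline without PLX gave -0.0051 for Fcgr2b and -0.024 for Fcgr3, and the interaction of PLX and LPS in MIA gave 0.0066 for Fcgr1, 0.022 for Fcgr2b and 0.063 for Fcgr3. The interaction of MIA and LPS with PLX gave for Fcgr2b -0.015 with no filter, -0.10 with both marked libraries included and -4.5e-05 with only the contrast's groups. With both marked libraries included, PLX against none gave 0.12 for Fcgr2b after LPS in CON, and 0.012 for Fcgr1 and 0.064 for Fcgr2b at saline in MIA, and the interaction of PLX and LPS in MIA gave -1.40 for Fcgr4. In that setting 7 ratio differences passed the threshold: Fcgr4 to Fcgr2b at 3.61 in MIA:CON, 4.27 in CON:PLX, 3.13 in MIA:PLX and 1.51 for PLX against none after LPS in CON, and Fcgr4 to Fcer1g at 3.59 in MIA:CON, 4.02 in CON:PLX and 3.35 in MIA:PLX. The ratio of Fcgr4 to Fcer1g for MIA against CON after LPS without PLX became 0.40. With limma voom, PLX against none at saline in MIA gave 0.0025 for Fcgr1, and the interaction of PLX and LPS in MIA gave 0.093 for Fcgr3. With only the contrast's groups, Fcer1g lost its call in CON:CON (0.74, adjusted p = 0.0835) and gained one for MIA against CON at saline with PLX (0.50, adjusted p = 0.000793).

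With the replicate number as a block, the LPS change of Fcgr1 passed the test in MIA:CON (0.73, adjusted p = 0.0193) and MIA:PLX (0.73, adjusted p = 0.0403), contrasts in which libraries share only a number. The block also gave 0.094 for Fcgr2b in PLX against none after LPS in CON, -0.031 for Fcgr2b in the interaction of MIA and LPS with PLX, and 0.0071 for Fcgr1 and 0.031 for Fcgr3 in that of PLX and LPS in MIA. The pairing changed no other call of the 5 genes.

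With 1 library left out at a time, or the 2 lowest in ribosomal protein genes, values ran as follows. Fcer1g after LPS ran from 0.57 to 0.98 in CON:CON and from 0.60 to 0.88 in MIA:PLX. For MIA against CON at saline without PLX, Fcgr2b ran from -0.00082 to 0.12, Fcgr3 from -0.0014 to 0.086 and Fcgr4 from -0.061 to 0.36. For MIA against CON after LPS with PLX, Fcgr2b ran from -0.013 to 0.27, Fcgr3 from -0.077 to 0.035 and Fcer1g from -0.21 to 0.068. For PLX against none at saline in CON, Fcgr1 ran from -0.032 to 0.14, Fcgr4 from -0.12 to 0.30 and Fcer1g from -0.020 to 0.11, and at saline in MIA, Fcgr1 ran from -0.071 to 0.068, Fcgr2b from -0.12 to 0.010 and Fcgr4 from -0.037 to 0.35. For PLX against none after LPS, Fcgr2b ran from -0.12 to 0.12 in CON, and in MIA Fcgr1 ran from -0.24 to 0.081, Fcgr2b from -0.31 to 0.058 and Fcer1g from -0.23 to 0.076. The interaction of MIA and LPS ran from -0.049 to 0.60 for Fcgr1 without PLX and from -0.21 to 0.086 for Fcgr2b with PLX. The interaction of PLX and LPS in MIA ran from -0.22 to 0.093 for Fcgr1, -0.26 to 0.11 for Fcgr2b, -0.13 to 0.073 for Fcgr3 and -0.15 to 0.24 for Fcgr4.

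The ratios moved likewise. For MIA against CON after LPS without PLX, Fcgr1 to Fcgr2b ran from -0.27 to 0.47, Fcgr3 to Fcgr2b from -0.26 to 0.16, Fcgr4 to Fcgr2b from -0.021 to 0.35 and Fcgr1 to Fcer1g from -0.58 to 0.0055. With PLX, Fcgr3 to Fcgr2b ran from -0.30 to 0.038, Fcgr3 to Fcer1g from -0.081 to 0.24 and Fcer1g to Tyrobp from -0.13 to 0.13. For PLX against none after LPS in CON, Fcgr1 to Fcer1g ran from -0.18 to 0.41, Fcgr3 to Fcer1g from -0.35 to 0.031 and Fcer1g to Tyrobp from -0.12 to 0.16. In MIA, Fcgr1 to Fcgr2b ran from -0.16 to 0.33, Fcgr1 to Fcer1g from -0.16 to 0.30 and Fcgr3 to Fcer1g from 0.22 to 0.51, the last past the threshold without replicate 5 of MIA:PLX (adjusted p = 0.0444). After LPS against saline, Fcgr3 to Fcgr2b ran from -0.10 to 0.33 in CON:CON and from -0.029 to 0.21 in MIA:CON, Fcgr1 to Fcgr2b from -0.12 to 0.095 and Fcgr3 to Fcer1g from -0.0998 to 0.15 in CON:PLX, and Fcgr1 to Fcer1g from -0.46 to 0.0015 in MIA:PLX.

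Counts of genes over the whole table moved more. For LPS, the genes called higher numbered 1839 in CON:CON and 1205 with only its own groups, 1941 in MIA:CON and 1224 with library totals only or 1243 with its own groups, 2354 in CON:PLX and 1560 with library totals only, and 1589 in MIA:PLX and 985, 988 and 1011 without saline replicates 2, 3 and 4. Genes called lower numbered 1323 in CON:CON and 747 with both marked libraries included, and 1873 in CON:PLX and 1400 in MIA:PLX against 3115 and 2241 with limma voom. For MIA against CON at saline with PLX, 0 genes became 124 higher and 12 lower with only its own groups, and DESeq2 called 18 genes higher and 7 lower for PLX against none after LPS in MIA in place of 0.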
